A study of Mus musculus with 12 samples.

Results

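The genes described here are 10 inhibitors of mitogen-activated protein kinase (MAPK) signalling, chosen by name. They are the MAPK phosphatases Dusp1, Dusp4, Dusp5, Dusp6 and Dusp10, the Sprouty genes Spry1, Spry2 and Spry4, and Errfi1 and Rgs2. The last 2 are grouped as receptor-level inhibitors, though Rgs2 acts on the G protein Gq rather than on a receptor. All 10 were found by symbol in each of the 3 deposited tables, which together list 28995 genes. Fibroblasts of hindlimb muscle from wild-type mice 3 days old (genotype C57 BL/10) were kept in medium whose serum had been charcoal-stripped of steroids and were treated for 48 hours with 1 µM aldosterone (ALDO), 1 µM spironolactone (SPR) or the DMSO vehicle (VEH), and all groups received DMSO. Aldosterone is an agonist of the mineralocorticoid receptor, and spironolactone is a mineralocorticoid receptor antagonist. Poly(A) RNA of 12 plates was sequenced, 4 plates per treatment, from 2 mice with 2 plates per mouse and treatment. The cells had been enriched by adherence to plastic and pooled within each mouse before plating. The labels number each library by sample and by biological replicate without stating which number stands for the animal, and the p-values measure the spread between plates from 2 animals.

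MAPK cascades carry signals from growth factor and stress receptors to the nucleus, and each level of the cascade has its own brake. Dual-specificity phosphatases (DUSPs) remove the activating phosphates from ERK, p38 and JNK, some in the nucleus and some in the cytoplasm. Sprouty proteins act upstream, between receptor tyrosine kinases and RAS, Errfi1 (also called MIG6) binds and inhibits the kinase domain of EGF receptor family members, and Rgs2 switches off Gq, the G protein that couples many hormone receptors to phospholipase C. Most of these genes are themselves induced by the pathways they restrain.

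Promoter windows of 8 of the 10 genes were found in a RefSeq promoter table of assembly GRCm38.p6, as 9 windows reaching from 250 bases before to 50 bases after a start site. This assembly differs from the one the deposited positions use, so the windows were matched by symbol only. The windows of the 3 genes with the largest increases under aldosterone are shown because all 3 held the core of a cyclic AMP response element (CRE), a choice made after the windows were searched. In the sequences, capitals mark TGACG or its reverse complement CGTCA, and the full CRE TGACGTCA, which contains both of those core matches.

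Dusp1, chr17:26508423-26508722, minus strand: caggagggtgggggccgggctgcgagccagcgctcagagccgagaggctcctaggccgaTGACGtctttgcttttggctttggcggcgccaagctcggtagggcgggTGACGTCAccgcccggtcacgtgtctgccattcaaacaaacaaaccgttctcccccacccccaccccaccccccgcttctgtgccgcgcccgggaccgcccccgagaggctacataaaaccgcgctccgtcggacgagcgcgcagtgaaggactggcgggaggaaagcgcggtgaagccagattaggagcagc

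Errfi1, the second of its start sites, chr4:150854820-150855119, plus strand: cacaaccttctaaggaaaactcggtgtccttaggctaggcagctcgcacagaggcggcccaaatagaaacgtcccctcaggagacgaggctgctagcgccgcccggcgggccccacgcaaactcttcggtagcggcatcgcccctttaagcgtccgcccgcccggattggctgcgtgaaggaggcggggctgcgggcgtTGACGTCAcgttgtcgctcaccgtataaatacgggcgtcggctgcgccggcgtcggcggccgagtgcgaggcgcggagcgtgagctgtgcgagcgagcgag

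Rgs2, chr1:144004100-144004399, minus strand: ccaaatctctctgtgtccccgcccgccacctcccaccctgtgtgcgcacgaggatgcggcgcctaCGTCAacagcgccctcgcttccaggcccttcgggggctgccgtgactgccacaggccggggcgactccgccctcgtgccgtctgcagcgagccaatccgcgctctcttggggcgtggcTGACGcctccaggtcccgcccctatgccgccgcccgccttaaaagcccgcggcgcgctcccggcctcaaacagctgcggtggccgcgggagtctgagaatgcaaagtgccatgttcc

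The full CRE began 143 bases before the start site in Dusp1 and 51 bases before it in Errfi1, and it was present in 1.79% of all 32851 windows in the table. The core occurred 3 times in Dusp1, 2 times in Errfi1 and 2 times in Rgs2, at 185 and 67 bases before the start in Rgs2, and 20.8% of all windows held at least 1 copy. The first of the start sites of Errfi1 held neither. Of the genes that did not pass the test, Dusp5 is shown because its window held the other searched element that had a match, a pair of adjacent CArG boxes, the motif bound by serum response factor. Capitals mark the boxes and 1 CRE core.

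Dusp5, chr19:53528895-53529194, plus strand: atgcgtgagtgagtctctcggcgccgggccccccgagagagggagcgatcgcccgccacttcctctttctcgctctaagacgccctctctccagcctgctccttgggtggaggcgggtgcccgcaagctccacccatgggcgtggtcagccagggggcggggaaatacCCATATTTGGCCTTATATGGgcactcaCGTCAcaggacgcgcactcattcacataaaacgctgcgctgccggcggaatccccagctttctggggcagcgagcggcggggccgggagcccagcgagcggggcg

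These boxes began 82 and 72 bases before the start, and 1.63% of all windows held a CArG box. A CRE core was present in 4 of the 8 genes, Dusp5 among them, and 20.8% of all windows held one. The windows of Dusp6, which rose under aldosterone, and of Dusp10 and Spry2, which did not pass, held none of the searched motifs. The window of Spry1, the only gene of the set that fell under aldosterone, is shown as another in which none was found, so it has no capitals.

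Spry1, chr3:37639697-37639996, plus strand: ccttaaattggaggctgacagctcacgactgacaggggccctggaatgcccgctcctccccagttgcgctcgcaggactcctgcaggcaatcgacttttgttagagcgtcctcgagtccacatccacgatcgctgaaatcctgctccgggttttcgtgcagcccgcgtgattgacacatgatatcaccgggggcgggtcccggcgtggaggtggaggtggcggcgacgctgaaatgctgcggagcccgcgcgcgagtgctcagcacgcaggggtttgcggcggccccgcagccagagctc

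The hexamer TGTTCT, which is one arm of the site bound by mineralocorticoid and glucocorticoid receptors, was found on neither strand in any of the 9 windows, against 19.0% of all windows. Its inverted repeat with a spacer (0.00913% of all windows) and the AP-1 letters TGANTCA (7.81% of all windows) were not found in them either. A match or its absence in these windows says only that the letters are or are not there.

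The 12 libraries held between 19136923 and 30219185 reads on genes. The values below are normalized counts, which are gene reads divided by a size factor of the library, and each pair of treatments has its own table and scaling. Expression differences are given as log2 fold changes of (normalized count + 1) with their standard error (SE), from limma fitted over all genes of a table, and a gene is said to have risen or fallen where its p, adjusted by Benjamini-Hochberg over the table, was at most 0.05. The 4 steroid response genes used as a check of the treatment (Fkbp5, Tsc22d3, Per1 and Zbtb16) all rose with aldosterone, with log2 fold changes from 1.83 to 6.67. All 8 fibroblast markers were measured. They summed to 48298 to 52608 CPM (reads scaled to the size of the library, with TMM factors) in the VEH libraries. The ALDO sums were lower without overlap, at 42408 to 46782 CPM, and the SPR sums, 45815 to 50381 CPM, overlapped both. Col1a1 and Col1a2 weigh most in these sums, at 24481 and 14784 CPM in VEH sample number 1 replicate 1. The 7 measured macrophage markers summed to at most 15.6 CPM in the VEH and ALDO libraries. In bulk RNA a lower level in every cell cannot be told apart from fewer cells that express a gene.

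With aldosterone, 4 of the 10 genes rose against vehicle and 1 fell. Errfi1 and Rgs2 rose to 2.87 and 2.68 times the vehicle level, Dusp1 to 1.90 times and Dusp6 to 1.41 times, while Spry1 fell by 29.3%. Among all 27319 genes of this comparison 5.68% rose and 4.74% fell. Many of these genes were low. In a fit kept to the 15245 genes with a mean of at least 10, which held all 10 members, 1620 rose and 1413 fell. For Errfi1 and Rgs2 the log2 fold change was also at least 1, a rule met by 1.4% of all genes in this direction. In these 5 genes no ALDO library overlapped a VEH library, against 7.55% of all genes lying wholly above and 6.9% wholly below. The median log2 fold change of the 10 genes was 0.08 and that of all genes was −0.01. When the sample number entered the fit as a replicate block, the same 5 genes passed, while the number of genes called over the whole table went from 2847 to 4563.

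**Figure D1:**
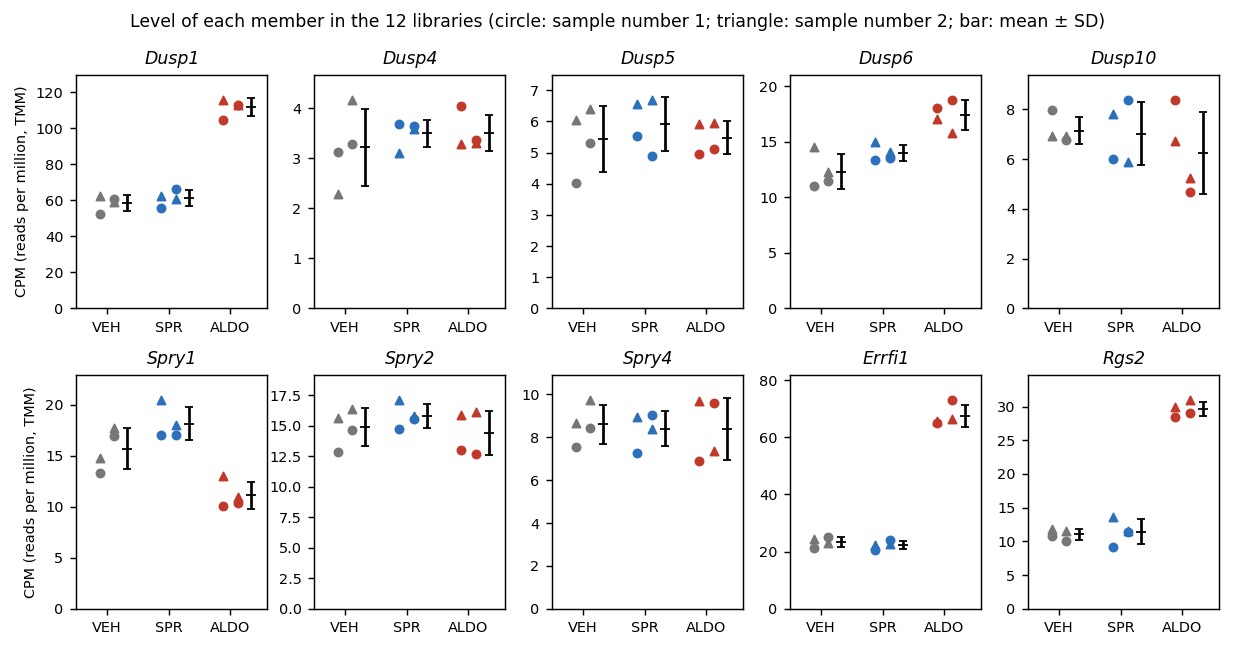
Level of each of the 10 genes in the 12 libraries, in CPM with TMM factors (vertical axes, each starting at 0), for vehicle (VEH), spironolactone (SPR) and aldosterone (ALDO). Circles are libraries of sample number 1, triangles those of sample number 2, and the bar beside them is the mean ± SD of 4 libraries; the ALDO points lie apart from the VEH points in Dusp1, Dusp6, Spry1, Errfi1 and Rgs2.

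Errfi1, which inhibits EGF receptor family members, and Rgs2, which acts on Gq, showed the largest changes of the set with aldosterone. Errfi1 (ENSMUSG00000028967, chromosome 4, 150938376 to 150953349, plus strand) had 509, 599, 589 and 541 normalized counts in the VEH libraries, in the order sample number 1 replicates 1 and 2, then sample number 2 replicates 1 and 2. In the ALDO libraries, in the same order, it had 1557, 1736, 1560 and 1564. The lowest ALDO library was more than 2 times the highest VEH library. The log2 fold change was 1.52 (SE 0.069, limma adjusted p = 2.38e-10).

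Rgs2 (ENSMUSG00000026360, chromosome 1, 143875076 to 143879899, minus strand) had 258, 238, 283 and 272 normalized counts with vehicle. With aldosterone it had 682, 690, 714 and 729. Here too every ALDO library was more than 2 times every VEH library, and the groups were tight, at 704 ± 21.7 against 263 ± 19.4 (mean ± SD, n = 4). The log2 fold change was 1.42 (SE 0.077, limma adjusted p = 2.45e-09). Errfi1 and Rgs2 passed in 18 of 19 alternative settings each, and the exception used sample number 1 alone, with adjusted p of 0.0523 and 0.0509.

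Of the 5 MAPK phosphatases, 2 rose and 3 did not pass the test. Dusp1 (ENSMUSG00000024190), a nuclear phosphatase with a preference for p38 and JNK and a classic glucocorticoid-induced gene, had 1248, 1444, 1492 and 1400 normalized counts with vehicle. With aldosterone it had 2498, 2682, 2758 and 2664. All ALDO libraries lay above all VEH libraries, with a log2 fold change of 0.93 (SE 0.063, limma adjusted p = 3.78e-08), just under the 1 that the study also asked for. This call too was lost only with sample number 1 alone (adjusted p = 0.0711). In the deposited annotation Dusp1 spans chromosome 17, 26724564 to 26781102, on the minus strand, and overlaps Ergic1 on the other strand, which had 4700 to 7923 reads per library. The sources used here do not say whether counting used the strand. Ergic1 itself had a log2 fold change of 0.17 (limma adjusted p = 0.0607), and its part in the Dusp1 value was not tested.

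Dusp6 (ENSMUSG00000019960, chromosome 10, 99099093 to 99103351, plus strand), the cytoplasmic phosphatase specific for ERK, had 263, 272, 348 and 291 normalized counts with vehicle. With aldosterone it had 431, 446, 405 and 370. The lowest ALDO library was above the highest VEH library by a small margin, and both of these came from sample number 2. The log2 fold change was 0.50 (SE 0.099, limma adjusted p = 0.00287). Within sample number 1 it was 0.71 and within sample number 2 it was 0.28. The difference between them, −0.43 with a 95% interval from −0.76 to −0.10, did not pass over all genes (limma interaction, adjusted p = 0.895). The call was lost when plates were averaged within a sample number (adjusted p = 0.113), within sample number 1 (0.0509) or sample number 2 (0.380) alone, and without ALDO sample number 1 replicate 2 (0.0504).

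The other 3 phosphatases did not pass the limma test. Dusp4, a nuclear phosphatase of ERK (ENSMUSG00000031530, chromosome 8, 35274451 to 35287048, plus strand), had 54.9 to 98.8 normalized counts with vehicle and 77.7 to 96.9 with aldosterone. Its log2 fold change was 0.14 (95% interval −0.25 to 0.53), so a rise as large as that of Dusp6 lies within the interval while that of Dusp1 does not. Dusp5, a nuclear phosphatase specific for ERK (ENSMUSG00000034765, chromosome 19, 53517540 to 53530862, plus strand), had 95.6 to 151 with vehicle and 119 to 141 with aldosterone, and a log2 fold change of 0.02 (95% interval −0.30 to 0.34). Dusp10, which acts on p38 and JNK (ENSMUSG00000039384, chromosome 1, 183745499 to 183807833, plus strand), had 161 to 190 with vehicle and 111 to 200 with aldosterone, and a log2 fold change of −0.23 (95% interval −0.57 to 0.11). In each of these 3 genes the groups overlapped, and the ALDO libraries of Dusp10 spread more widely (SD 40.3) than its VEH libraries (SD 13.1).

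Of the 3 Sprouty genes, Spry1 fell and the others did not pass. Spry1 (ENSMUSG00000037211, chromosome 3, 37694096 to 37698747, plus strand) had 317, 403, 355 and 420 normalized counts with vehicle. With aldosterone it had 242, 247, 308 and 258. The highest ALDO library, sample number 2 replicate 1, lay just under the lowest VEH library, sample number 1 replicate 1. The log2 fold change was −0.50 (SE 0.11, limma adjusted p = 0.00516), with −0.55 within sample number 1 and −0.45 within sample number 2. The direction was the same in every alternative, but the call was lost with plates averaged (adjusted p = 0.0876), within sample number 1 (0.240) or 2 (0.277) alone, and in 5 of 8 fits without a single library. Those were the fits without ALDO sample number 1 replicate 1 (0.0538), sample number 1 replicate 2 (0.0724) or sample number 2 replicate 2 (0.0665), and without VEH sample number 1 replicate 2 (0.0719) or sample number 2 replicate 2 (0.0669).

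Spry2 (ENSMUSG00000022114, chromosome 14, 106129381 to 106134253, minus strand) had 306, 350, 375 and 389 normalized counts with vehicle and 313, 302, 378 and 379 with aldosterone. Both treatments thus had their higher values in sample number 2. Its log2 fold change was −0.05 (95% interval −0.27 to 0.17), an interval that holds no fall as large as the Spry1 estimate. Spry4 (ENSMUSG00000024427, chromosome 18, 38719300 to 38734468, minus strand) had 180 to 231 with vehicle and 165 to 230 with aldosterone, with a log2 fold change of −0.05 (95% interval −0.32 to 0.22).

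**Figure D2:**
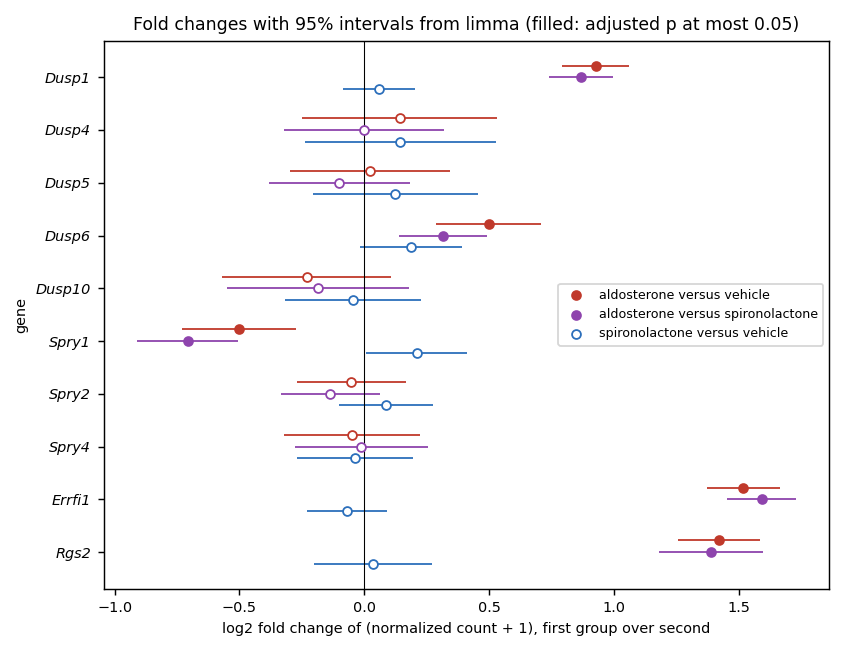
Log2 fold change of (normalized count + 1) of each gene (horizontal axis) with its 95% interval from limma, for aldosterone over vehicle, aldosterone over spironolactone and spironolactone over vehicle. Filled points passed an adjusted p of 0.05; Errfi1, Rgs2, Dusp1 and Dusp6 lie to the right and Spry1 to the left in both aldosterone comparisons, and no point of spironolactone over vehicle is filled.

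Spironolactone served in the study as a control for steroids left in the serum. Against vehicle, none of the 10 genes passed with spironolactone, and neither did any of the 27598 genes of that table by limma (0.0% called). At an unadjusted p under 0.05 there were 1251 genes, and edgeR called 0, DESeq2 13 and limma blocked on the sample number 97. Of the set, Spry1 had the largest log2 fold change, 0.21 (95% interval 0.01 to 0.41, adjusted p = 0.934), with 318 to 422 normalized counts for vehicle and 404 to 489 for spironolactone. For Errfi1 the interval was −0.23 to 0.09, for Rgs2 −0.20 to 0.27 and for Dusp1 −0.08 to 0.20, so none of the 3 held a change near the size seen with aldosterone. The VEH libraries are the same as in the aldosterone comparison.

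Aldosterone against spironolactone shares its ALDO libraries with the first comparison, and its values are given beside it rather than as a second test. The same 5 genes passed, 4 higher and 1 lower, with 4.93% of 27631 genes higher and 3.96% lower. In a fit kept to the 15300 genes with a mean of at least 10, 1400 were higher and 1171 lower. Log2 fold changes were 1.59 for Errfi1 (adjusted p = 2.66e-11), 1.39 for Rgs2 (2.95e-08) and 0.87 for Dusp1 (2.58e-08), all by limma. Errfi1 and Rgs2 again passed the fold threshold, which 1.38% of all genes met in this direction. Spry1 had 417, 412, 499 and 441 normalized counts with spironolactone and 249, 254, 317 and 264 with aldosterone. Its log2 fold change of −0.71 (SE 0.096, limma adjusted p = 6.83e-05) was lost only within sample number 1 (0.0663) or 2 (0.145) alone. For Dusp6 the log2 fold change was 0.31 (SE 0.083, limma adjusted p = 0.0233), between 327 and 365 normalized counts with spironolactone and 381 and 458 with aldosterone. That call was lost with plates averaged (0.274), within sample number 1 (0.0793) or 2 (0.372) alone, and in 6 of 8 fits without a single library, with adjusted p from 0.0684 to 0.0852. These were the fits without ALDO sample number 1 replicate 1 or 2 or sample number 2 replicate 1, and without SPR sample number 1 replicate 1 or 2 or sample number 2 replicate 2. With a replicate block on the sample number, 3974 genes passed in place of 2454, and the 10 genes kept their calls.

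Levels of different genes can be compared only per gene length, as RPKM, the reads scaled by gene length and library size. With vehicle, Dusp1 was highest at 17.7 ± 1.31 RPKM (mean ± SD, n = 4), followed by Spry2 (7.14), Errfi1 (6.56), Spry1 (5.40), Dusp6 (3.93), Rgs2 (3.04), Dusp10 (2.35), Dusp5 (2.20), Spry4 (1.81) and Dusp4 (1.17). The libraries of neighbours in this order overlapped, except between Dusp1 and Spry2, Dusp6 and Rgs2, Rgs2 and Dusp10, and Spry4 and Dusp4. With aldosterone the order began with Dusp1 (33.7 RPKM), Errfi1 (18.9), Rgs2 (8.17) and Spry2 (6.92). Rgs2 thus went from the sixth to the third place and Spry1 from the fourth to the sixth, at 3.82 RPKM. The genes that did not pass with aldosterone included both a well expressed one (Spry2) and the lowest one (Dusp4, with 45 to 109 reads in each of the 12 libraries).

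**Figure D3:**
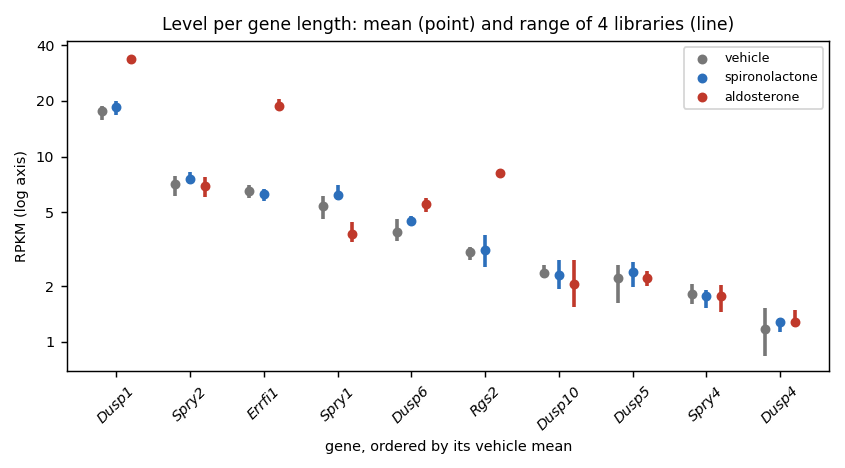
Level of each gene per length in RPKM (vertical log axis), in the order of the vehicle means, for vehicle, spironolactone and aldosterone. Points are means and lines run from the lowest to the highest of 4 libraries; Dusp1 is highest throughout, and aldosterone stands above the other treatments in Dusp1, Errfi1, Dusp6 and Rgs2 and below them in Spry1.

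Other genes of the pathway were examined as fixed lists for aldosterone against vehicle. Of the 5 other MAPK phosphatases, Dusp8, which acts on JNK and p38, fell from 629 ± 60.0 to 466 ± 50.8 normalized counts (log2 fold change −0.43, limma adjusted p = 0.00516), a call lost without ALDO sample number 1 replicate 2 or VEH sample number 1 replicate 2, or without either VEH replicate of sample number 2 (adjusted p up to 0.0777). Dusp2 passed as higher on 4.60 to 6.28 counts against 0 to 2.44, which is near the detection floor, and it was lost in 7 of 8 fits without a library. The other 3 (Dusp7, Dusp9 and Dusp16) did not pass. Of 10 measured atypical dual-specificity phosphatases 1 rose, Dusp14, which has been linked to JNK and TAK1, with 491, 579, 463 and 574 normalized counts against 204, 185, 199 and 156 with vehicle. No ALDO library of Dusp14 overlapped a VEH library, and its log2 fold change of 1.5 (SE 0.11, limma adjusted p = 5.64e-08) was of the size seen for Errfi1 and Rgs2. None of the 3 measured genes among Spry3 and the SPREDs and none of 10 measured small RGS genes besides Rgs2 passed. Rgs4, singled out after its values were seen, had 2309, 2535, 977 and 901 normalized counts with vehicle and 2107, 1862, 611 and 587 with aldosterone. The values were higher in sample number 1, and within each sample number the ALDO libraries were lower, with log2 fold changes of −0.29 and −0.65. Its limma adjusted p was 0.581, and 1.1e-06 blocked on the sample number, under which it was the 1 gene of this list that passed.

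Among 14 other genes listed as inhibitors of RAS and receptor signalling 3 rose and 1 fell. The list groups genes by assumed role, and whether each inhibits the pathway in these cells was not tested. Spsb1, an adaptor of a ubiquitin ligase, rose from 399 ± 39.5 to 1539 ± 152 normalized counts (log2 fold change 1.94, limma adjusted p = 1.41e-10). Rasa3, a GTPase-activating protein for RAS and RAP1, rose from 1172 ± 70.9 to 2728 ± 96.1 (1.22, adjusted p = 5.09e-10). Cblb, a ubiquitin ligase for receptor tyrosine kinases, rose from 720 ± 60.6 to 1435 ± 46.7 (0.996, just under the fold threshold, adjusted p = 3.74e-08). The ALDO libraries of these 3 lay above all VEH libraries. Nf1, the RAS inhibitor neurofibromin, had a log2 fold change of −0.19 (adjusted p = 0.0394, up to 0.0622 without a single library, lost in 5 of 8 such fits). Blocked on the sample number 4 rose and 2 fell, Pebp1 (0.25) and Lrig3 (−0.13) being the additions.

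Changes that passed among the kinases themselves were small. Among 17 genes from adaptor to ERK, those that passed included Shc1 (0.19) and Mapk3 (0.17), which rose, and Braf (−0.25), which fell, in log2 fold change, with limma adjusted p of 0.0199, 0.0453 and 0.0174. Of 15 genes of the p38 and JNK cascades, Mapk14 (0.24) rose, and Map2k3 (−0.22) and Mapk8 (−0.21) fell, with limma adjusted p of 0.00787, 0.0409 and 0.0492. Mapk3, Braf, Map2k3 and Mapk8 were lost in 6, 6, 8 and 5 of 8 fits without a library, with adjusted p up to 0.169, and Shc1 and Mapk14 in none. Blocked on the sample number, Sos1 (−0.18) and Gab1 (−0.28) of the first list also fell. In the Gq pathway, which Rgs2 restrains, Plcb3 (0.23) rose and Plcb1 (−0.29) fell of 6 genes, and both were lost in 7 and 6 of those 8 fits, with adjusted p up to 0.164.

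Larger changes were found in some ligand and receptor genes at the top of the cascade. Of 8 ligand genes 1 rose, 2 fell and 5 did not pass. Of 12 receptor genes 1 rose, 1 fell and 10 did not pass. Tgfa, the EGF receptor ligand TGF-alpha, had 68.8, 69.3, 110 and 140 normalized counts with vehicle and 718, 671, 765 and 762 with aldosterone. Every ALDO library was more than 4 times every VEH library, and the log2 fold change was 2.96 (SE 0.18, limma adjusted p = 7.71e-09). Of the 8 ligand genes, Nrg1, which binds ERBB receptors, fell from 259 ± 48.8 to 128 ± 6.70 normalized counts (−1.0, adjusted p = 5.41e-05), and Hbegf fell from 473 ± 83.8 to 316 ± 26.9 (−0.57, adjusted p = 0.00248). The Hbegf call was lost without either ALDO replicate of sample number 2 or without VEH sample number 1 replicate 2 (adjusted p up to 0.0675). Of 12 receptor tyrosine kinase genes, Pdgfra rose from 3149 ± 206 to 5912 ± 312 (0.91, adjusted p = 2.93e-08) and Fgfr3 fell from 662 ± 58.6 to 509 ± 24.0 (−0.38, adjusted p = 0.00359). Egfr, the receptor that Errfi1 inhibits, had 1558, 1565, 2492 and 2578 with vehicle and 1361, 1326, 2393 and 2487 with aldosterone. Its values were higher in sample number 2 under both treatments. Within each sample number both ALDO libraries lay below both VEH libraries in these normalized counts. In CPM with TMM factors this did not hold in sample number 2. There ALDO replicate 2 (105.7 CPM) lay above VEH replicate 1 (103.9 CPM). The log2 fold change was −0.14 (limma adjusted p = 0.763, and 0.0474 blocked on the sample number), and the gene was singled out after its values were seen. Under that block 4 of the 12 receptor genes rose and 3 fell, with Fgfr1, Fgfr2 and Igf1r added above and Egfr and Pdgfrb below, and 3 of the 8 ligand genes fell, with Epgn added at 5.03 normalized counts or fewer in every VEH and ALDO library.

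Genes whose transcription commonly follows ERK activity moved in both directions, with 3 of 15 rising, 5 falling and 7 not passing. Blocked on the sample number 3 rose and 7 fell, the additions being Egr1 (log2 fold change −0.41, adjusted p = 0.188 unblocked and 0.000371 blocked) and Epha2 (−0.32, adjusted p = 0.0868 and 2.55e-05). Fos rose from 80.1 ± 27.9 to 169 ± 26.8 normalized counts (log2 fold change 1.13, limma adjusted p = 0.00272) and Ccnd1, cyclin D1, from 13402 ± 823 to 19802 ± 629 (0.57, adjusted p = 4.98e-06). Phlda1 (−0.65, adjusted p = 0.0287) and Etv4 (−0.64, adjusted p = 0.0348) had the largest falls. Fos was lost without ALDO sample number 1 replicate 2, either ALDO replicate of sample number 2 or VEH sample number 1 replicate 2 (adjusted p up to 0.0909), Phlda1 in 6 and Etv4 in 7 of 8 such fits (up to 0.101 and 0.199), and Ccnd1 in none. Dusp6, Spry2 and Spry4 are often read as ERK targets too. So are Etv5 and Spred1, which are among the 15 genes counted above and did not pass. Etv5 had a log2 fold change of 0.12 (adjusted p = 0.420) and Spred1 one of −0.07 (adjusted p = 0.690), and both were singled out after their values were seen.

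**Figure D4:**
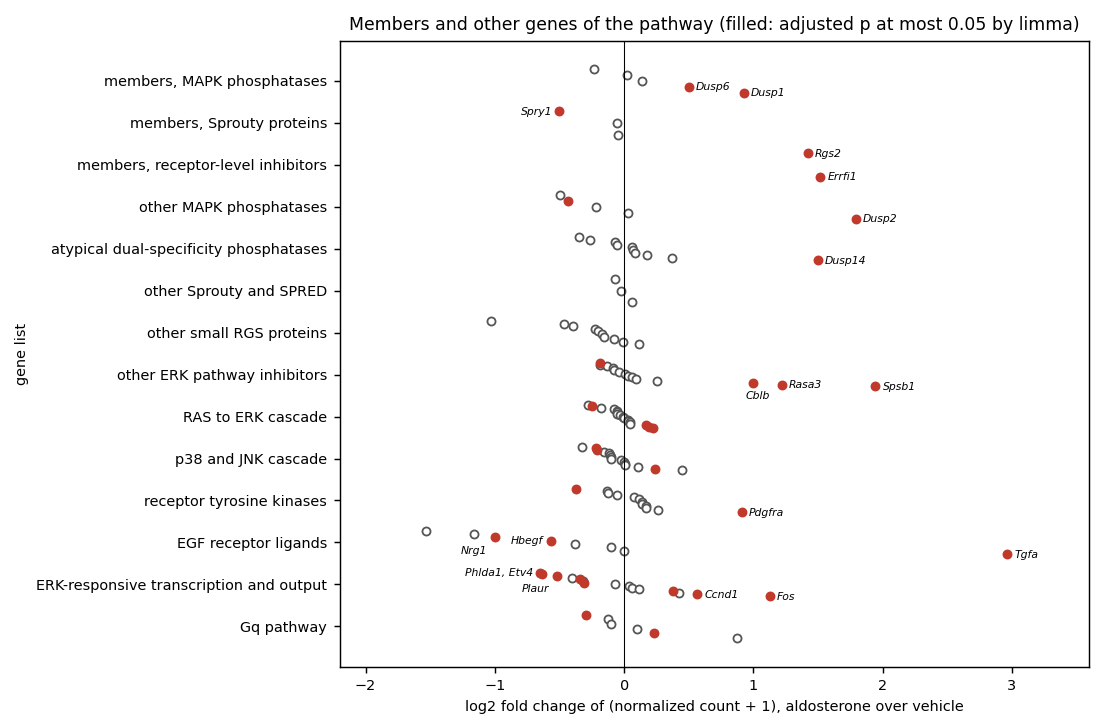
Log2 fold change of (normalized count + 1), aldosterone over vehicle (horizontal axis), of the 10 genes by role and of the fixed lists of other pathway genes (rows). Each point is a gene and filled points passed a limma adjusted p of 0.05. Most genes of the RAS to ERK and p38 and JNK lists lie near 0. Tgfa, Spsb1, Dusp14, Rgs2, Errfi1 and Dusp2 lie at 1.42 or above, Dusp2 on counts near the detection floor.

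By the fixed rule, the genes with the profile most like that of a member past both thresholds were listed from 15313 genes over 12 libraries, as a description. For Errfi1 these were Hif3a (Pearson r = 0.995), Serpina3m (0.994) and Tmem106b (0.994). For Rgs2 they were Lcn2 (0.992), Glul (0.990) and Cavin1 (0.990). In Errfi1 and Rgs2 the ALDO libraries lie apart from all the others, so the 12 points are not spread evenly, and no p is given for these coefficients.

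Markers of other cell states moved with the treatment as well. All 4 proliferation markers (Mki67, Top2a, Ccnb1 and Cdk1) fell with aldosterone, with log2 fold changes from −0.81 to −0.48, and their summed level was 364 to 371 CPM with vehicle, 369 to 391 with spironolactone and 210 to 247 with aldosterone. Of the 8 fibroblast markers, Pdgfra (0.91) and Vim (0.48) rose and Col3a1 (−0.43) fell in log2 fold change, and under the sample number block 6 fell, Col1a1, Col1a2, Dcn, Lum and Thy1 being the additions. The 5 endothelial markers summed to 19.7 to 22.4 CPM with vehicle and 28.5 to 31.5 with aldosterone, and 1 of them, Kdr, passed, a call lost in 6 of 8 fits without a single library (adjusted p up to 0.0921). The 7 myogenic markers summed to 21.98 to 32.5 CPM with vehicle and 8.91 to 18.9 with aldosterone, with Acta1 the 1 that passed, a call lost in 5 of 8 such fits (adjusted p up to 0.0781). The satellite cell markers Pax7 and Myf5 were at 0 in all ALDO libraries and at most 0.153 CPM in any library. The 3 adipocyte markers summed to 10.7 to 14.8 CPM with vehicle and 17.3 to 22.5 with aldosterone, with Plin1 passing. Of 7 measured macrophage markers Cd14 passed, on sums of 12.9 to 15.4 and 14.0 to 15.6 CPM, and no pericyte (4 genes, 384 to 493 and 296 to 446 CPM) or glial marker (3 genes, at most 3.92 CPM) passed. Under that block the endothelial Tek and the adipocyte Pparg also rose, and the pericyte markers Notch3 and Cspg4 fell. The part of these shifts in the values of the 10 genes was not tested.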

How the data were processed

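The authors deposited 3 tables, 1 for each pair of treatments, whose library columns hold a signal, the gene counts scaled by each library's size factor. Per the submitters' processing notes, reads were aligned with HISAT2 2.0.5 and counted with featureCounts 1.5.0-p3. The notes name the build mm39 and the methods of the paper mm9. Start positions in the tables equal those of an mm9 annotation for 8 of 20645 genes, and positions are printed as the tables give them. Whether counting used the strand is not given in the sources used here. The tables also hold group means and the authors' fold changes and p-values from DESeq2, which were not used. The first step taken here was to recover whole reads. The worth of 1 read was the smallest positive value in a column, refined by a least-squares fit to the low values of that column. Of the values, 100% were whole multiples of it within 0.01. Of the 24 columns, 22 could be used, and the 10 libraries recovered from 2 tables differed in 0 genes.

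edgeR had been planned for counts and limma for normalized values. As the tables hold normalized values, limma 3.58.1 (R 4.3.3) was fitted to log2(value + 1), letting the prior variance follow a trend, over all genes of a table, with treatment as the only factor and 4 libraries per group. Adjusted p is by Benjamini-Hochberg over the whole table, at 0.05. The stricter call adds a log2 fold change of 1 or more in size. A log scale with a pseudocount of 1 understates changes of low genes. CPM and RPKM were computed from the recovered reads with edgeR 4.0.16 TMM factors and the deposited gene lengths. The alternatives were edgeR and DESeq2 1.42.0 on recovered reads, a pseudocount of 0.5, a filter at a mean of 10, TMM scaling, the sample number as a block, plates averaged, each sample number alone, all 12 libraries in 1 edgeR fit, each library left out, and promoter windows cut at the start site. Treating the plates of a sample number as correlated was chosen after seeing the data. The fits were tested on simulated counts drawn independently for each library, without an effect of the sample number. That simulation does not cover correlation between plates of a sample number.

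Deviations of libraries with the same sample number from their group means correlated in all 24 pairs (Pearson r across genes from 0.135 to 0.291, mean 0.218), while those with the same biological replicate number had a mean r of −0.0034, so the sample number was used as the pairing. The members and gene lists were chosen with earlier results of these data known. All 10 members are named. From each list the genes past the adjusted p with the largest fold changes are named, at most 4, and for members past both thresholds the 3 genes with the most similar profile. Genes that passed only under the sample number block are named as additions, and this naming was not part of the fixed rule. Rgs4, Egfr, Etv5 and Spred1 are said to be chosen after their values were seen. The protein sequences of the members were not used here. The values of 1 gene of the RAS to ERK list are not reported here.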

Additional observations from a re-analysis of the deposited data

Results flagged for a closer look

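In 30 groups of 4 libraries (10 genes in 3 treatments), 2 held a library whose gap to the rest passed the 95% limit of Dixon's test for 4 values. Chance alone passes it in about 1 of 20 groups. Dusp4 in the aldosterone library of sample number 1 replicate 1 stood at 4.05 CPM, against 3.29 to 3.37 CPM in the other aldosterone libraries. Dusp10 in the vehicle library of sample number 1 replicate 1 stood at 7.95 CPM, against 6.76 to 6.93 CPM in the other vehicle libraries. Neither gene passed the limma test in any comparison.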

How the results depend on the processing

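Over 19 alternatives, 541 of 570 values of the 10 genes stayed on their side of the threshold in the same direction or uncalled, 29 lost a call and none reversed. For the aldosterone and vehicle comparison, 5 genes of the set passed the adjusted p. With plates averaged 3 passed, with sample number 1 alone 0, with sample number 2 alone 3, and without single libraries 3 to 5. Both thresholds were passed by 2, and by 0 with sample number 1 alone. Over all genes 2847 passed, and 4563 with the replicate block on the sample number, 722 with plates averaged, 17 and 888 with sample number 1 or 2 alone, and 1766 to 2246 without single libraries. Both thresholds were passed by 564 genes, 277 with plates averaged and 17 with sample number 1 alone. For aldosterone and spironolactone, the set counted 5, then 0 and 3 with sample number 1 or 2 alone, and 2 past both thresholds, then 0 with sample number 1 alone. Over all genes it was 2454, then 3974 with the replicate block, 535 with plates averaged, 4 and 943 with sample number 1 or 2 alone, and 1565 to 1865 without single libraries, and past both thresholds 525, then 223 with plates averaged and 4 with sample number 1 alone. For spironolactone and vehicle, 0 genes became 13 with DESeq2 and 97 with the replicate block, 2 of them past both thresholds. Fits on averaged plates or a single sample number have 2 values per group, and the block changed no call of the 10 genes and lost none of the pathway and marker genes called against vehicle, but added others, named in the report. Values of pathway genes past the adjusted p in the aldosterone comparisons kept their call in 1120 of 1460 cases and lost it in 340, with 0 reversed. Searching only the bases before the start site left every motif count of the set as it was. With 2 mice, variation between animals was sampled thinly.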
